A study of Mus musculus with 16 samples.

Results

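VSM_0 is the largest of the 10 clusters that the authors named as vascular smooth muscle (VSM) among stromal vascular cells of brown adipose tissue of the mouse, which are what is left of the digested tissue when the floating adipocytes are discarded. Its members are the cells that carry this name in the authors' table of named cells, where it equals cluster 0 of a graph clustering at resolution 1.2. There were 2287 such cells, which is 18.5% of 12372 VSM cells, 9.39% of 24352 named cells and 2.08% of the 109723 cells deposited in all. The name rests on the authors' labels: gene values were not analysed here, so the defining smooth muscle markers Acta2, Myh11, Tagln and Cnn1 were not read in these cells, nor were markers of pericytes, endothelial cells or progenitors.

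Vascular smooth muscle cells form the contractile layer of arteries and larger veins. Acta2 and Myh11 are actin and myosin chains of their contractile filaments, and Tagln and Cnn1 bind actin and tune contraction. The vessels of brown adipose tissue carry oxygen and fuel to fat cells that burn lipid for heat, and the tissue and its vessels are known to expand in the cold. Mural cells of adipose vessels have been studied as a possible source of new adipocytes, which is the question named in the title of the series.

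C57BL6J mice were housed at 30 °C (thermoneutral), at 22 °C for 1 week (room temperature), or in the cold at 5 °C, which lasted 2 days or 7 days. Whether the 1 week also holds for 30 °C is not clear from the labels. Each condition had 4 single-cell libraries of interscapular tissue, made from digested cells depleted of the adipocyte layer, red cells and dead cells. No genotype, transgene or drug is named in the labels, which give neither the age nor the sex of the mice nor the number of animals behind a library. Nothing says that the libraries came from separate animals, so p-values measure the spread between these libraries, which may be technical.

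Replicate 1 of 2-day cold held no named cells, so values of VSM_0 come from 3 libraries in 2-day cold and from 4 in the rest. A library had from 1473 to 10005 cells, of which 357 to 3739 carried a name in the 15 libraries with named cells. The library median depth of VSM_0 cells ran from 5263 to 14875 unique molecular identifiers (UMIs, counts of distinct RNA molecules). Libraries numbered 1 and 2 were deeper than those numbered 3 and 4, with a mean of the VSM_0 medians of 11662 ± 2735 UMIs (SD, n = 7) against 7711 ± 1966 (SD, n = 8). Of the barcodes of VSM_0, 1 was seen in more than 1 library, and none was shared by 2 libraries of a condition.

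VSM_0 was present in every library with named cells, and its place among the VSM clusters varied from library to library. The thermoneutral libraries held 339, 33, 192 and 358 of its cells in the order of replicates 1 to 4, and the room temperature libraries 165, 261, 292 and 46. The 2-day cold libraries held 138, 164 and 143 (replicates 2, 3 and 4), and the 7-day cold libraries 29, 57, 49 and 21. VSM_0 held the top rank among the VSM clusters in 5 libraries, the next in 4, and rank 3 or 4 in 3 libraries each. In 7-day cold replicate 2 it shared the top rank with VSM_21, each at 19.3% of the VSM cells. In 7-day cold replicate 1 it shared the next rank with VSM_2, each at 14.5%. Values of 7-day cold thus rest on 156 cells in all.

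As a share of the VSM cells of its library, VSM_0 passed the test in no contrast between housing conditions. The shares were 16.9%, 14.9%, 20.1% and 20.0% in the thermoneutral libraries. At room temperature they were 17.9%, 13.2%, 25.8% and 33.1%. In 2-day cold they were 14.8%, 23.8% and 19.6%, and in 7-day cold 14.5%, 19.3%, 19.7% and 15.9%. The 4 groups overlapped, and the widest spread was at room temperature, where replicate 4, with 46 VSM_0 cells among 139 VSM cells, was highest of all (95% Wilson interval 25.8% to 41.3%).

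The group means of this share were 18.0% ± 2.53 (SD, n = 4) in thermoneutral housing, 22.5% ± 8.78 (SD, n = 4) at room temperature, 19.4% ± 4.52 (SD, n = 3) in 2-day cold and 17.3% ± 2.53 (SD, n = 4) in 7-day cold. In the limma fit over the 10 VSM clusters, on the log2 odds of the share, the threshold was an adjusted p of 0.05, and none of the 6 contrasts of VSM_0 passed it. Its log2 odds ratio in 7-day cold against thermoneutral housing was -0.05 ± 0.38 (SE), with a limma adjusted p of 0.970, and against room temperature -0.39 ± 0.38, with a limma adjusted p of 0.539. Unadjusted, the smallest p of VSM_0 over the 6 contrasts was 0.323, and edgeR called it in none. The sign of the former contrast turned in cells of 6000 to 15000 UMIs, to 0.50. Over the 6 contrasts 0 to 2 of the 10 clusters passed, which is 0% to 20%. In 7-day cold against thermoneutral housing 1 passed (10%), VSM_21, which rose by 3.55 ± 0.40 on the log2 odds scale (limma adjusted p 3.63e-06).

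As a share of all named cells VSM_0 was lower after 7 days of cold, short of the threshold. The values were 9.07%, 6.18%, 13.9% and 14.01% in the thermoneutral libraries, and 9.82%, 8.48%, 15.3% and 12.9% at room temperature. In 2-day cold they were 5.47%, 10.7% and 6.74%. In 7-day cold they were 3.70%, 5.34%, 8.02% and 4.47%, of which replicate 3 lay within the thermoneutral range and all 4 lay below the room temperature range.

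The log2 odds ratio of 7-day cold against thermoneutral housing was -1.06 ± 0.44 (SE), with a limma adjusted p of 0.0579 over 27 named clusters. Of these 10 passed in either direction (37%), and 12 had estimates below 0. VSM_2 passed as lower (-1.70 ± 0.53, limma adjusted p 0.0256) and VSM_21 as higher (2.49 ± 0.38, limma adjusted p 0.000266). The estimate of VSM_1 was -2.04 ± 0.82 (limma adjusted p 0.0537). Against room temperature the ratio of VSM_0 was -1.22 ± 0.44, with a limma adjusted p of 0.0727. In that contrast 2 of the 27 passed (7.41%), Schwann_14 and VSM_21, each higher. Within replicates 1 and 2 the ratio of VSM_0 against thermoneutral housing was -0.79, and within replicates 3 and 4 it was -1.32. Both contrasts passed when the depth-linked replicate groups 1 and 2 against 3 and 4 entered as a covariate, with limma adjusted p-values of 0.0217 and 0.0173, in fits that called 17 (63%) and 8 (29.6%) of the 27 clusters. The first also passed without thermoneutral replicate 2 (limma adjusted p 0.0379) and without 7-day cold replicate 3 (0.0422). In cells of 6000 to 15000 UMIs the ratios were -0.39 and -0.75 and neither passed, with limma adjusted p-values of 0.582 and 0.309.

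Counted against all cells of a library, named or not, VSM_0 made up 3.39%, 1.92%, 1.92% and 5.98% in thermoneutral housing and 5.81%, 3.73%, 2.92% and 1.93% at room temperature. In 2-day cold it made up 1.51%, 1.68% and 1.43%, and in 7-day cold 0.394%, 1.64%, 0.572% and 1.43%. All 7 cold libraries lay below all 8 warmer ones on this scale. The log2 odds ratio of 7-day cold against thermoneutral housing was -1.81 ± 0.68, with a limma adjusted p of 0.0887 over the 27 clusters. A share falls when other cells become more numerous as well as when its own cells become fewer, and these cannot be told apart in these data.

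**Figure D1:**
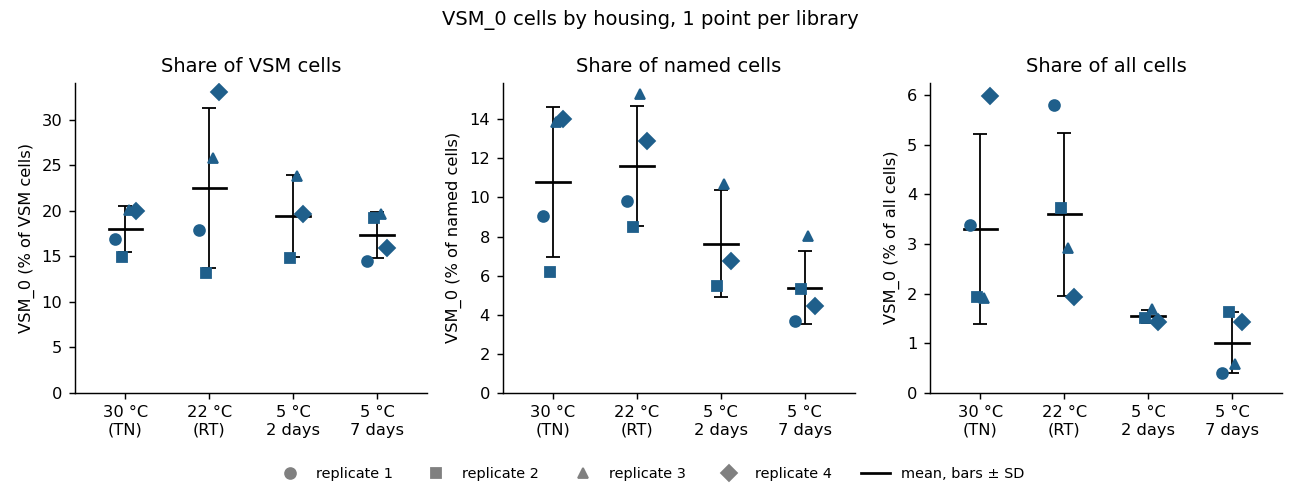
VSM_0 cells as a percentage of the VSM cells, of the named cells and of all cells of each library, with 1 point per library, its shape giving the replicate number, and group means ± SD. The groups overlap in the first panel. In the second the 7-day cold libraries, at 3.70% to 8.02%, lie below those at room temperature and overlap the other groups, and in the last the 7 cold libraries lie below the 8 warmer ones.

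Each cell carried a score for genes of S phase (DNA synthesis), a score for genes of G2 and M phase (growth before division, and mitosis), and a phase call. In all 2287 VSM_0 cells the call was G1, the label for cells in neither phase, exactly when both scores were below 0. For 49.7% of the cells the larger of the scores lay within 0.02 of 0, so many calls turn on small values. The highest G2M score of a VSM_0 cell was 0.129, and 0 of the 2287 cells exceeded 0.25, which allows a share of up to 0.131%, while 121 of the 24352 named cells exceeded it, up to 1.50. The calls below are therefore given as calls and not as a count of dividing cells.

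G2M calls in VSM_0 fell with 7 days of cold. They took 31.9%, 30.3%, 31.3% and 31.8% of its cells in the thermoneutral libraries and 27.9%, 31.4%, 36.3% and 28.3% at room temperature. In 2-day cold they took 14.5%, 12.2% and 29.4%. In 7-day cold they took 3.45%, 3.51%, 2.04% and 9.52%, which is 6 cells of 156.

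The 4 libraries of 7-day cold lay below all others, and those of 2-day cold lay between, with replicate 4 inside the range of the warm libraries. The group means were 31.3% ± 0.73 (SD, n = 4) in thermoneutral housing, 31.0% ± 3.90 (SD, n = 4) at room temperature, 18.7% ± 9.32 (SD, n = 3) in 2-day cold and 4.63% ± 3.33 (SD, n = 4) in 7-day cold. With 21 to 57 cells per library, 95% Wilson intervals of single 7-day cold libraries were wide, from 0.361% to 10.7% for the lowest and from 2.65% to 28.9% for the highest. The thermoneutral library with the fewest VSM_0 cells had an interval of 17.4% to 47.3%.

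The log2 odds ratio of a G2M call in 7-day cold against thermoneutral housing was -3.05 ± 0.45 (SE), with a limma adjusted p of 4.43e-06 over the 14 named clusters that had enough cells, of which 8 passed, all lower (57.1%). Against room temperature the ratio was -3.02 ± 0.45 (limma adjusted p 5.25e-06), where 5 of the 14 passed (35.7%). Against 2-day cold it was -1.97 ± 0.49 (limma adjusted p 0.00552), where 3 passed (21.4%). The last of these calls rested on 2-day cold replicate 4, without which it was -1.50 with a limma adjusted p of 0.104. For 2-day cold against thermoneutral housing the ratio was -1.08 ± 0.49 and did not pass (limma adjusted p 0.122), nor did room temperature against thermoneutral housing (-0.03 ± 0.45, limma adjusted p 0.947); in both, limma called 0 of the 14 clusters, with 5 and 0 at an unadjusted p under 0.05. The 0.5 cells added before taking odds weigh on these sizes, since a 7-day cold library had 1 or 2 cells called G2M.

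Within replicates 1 and 2 the difference between 7-day cold and thermoneutral housing was -3.23, and within replicates 3 and 4 it was -2.88. In cells of 6000 to 15000 UMIs it was -2.32 ± 0.57, a fit that held VSM_0 alone.

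In the table of named cells, S calls of VSM_0 passed the same test in no contrast, with a smallest unadjusted limma p of 0.343. They took 28.0%, 27.3%, 37.5% and 36.0% in thermoneutral housing, 35.2%, 31.8%, 35.6% and 34.8% at room temperature, and 29.0%, 41.5% and 30.8% in 2-day cold. In 7-day cold they took 13.8%, 31.6%, 34.7% and 38.1%, where replicate 1, with 4 of 29 cells, was the lowest and the other 3 lay inside or just above the thermoneutral range. The log2 odds ratio of 7-day cold against thermoneutral housing was -0.22 ± 0.37 (limma adjusted p 0.716), in a contrast in which 2 of the 14 clusters passed (14.3%).

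Together, S and G2M calls fell in 7-day cold. The log2 odds ratio was -1.78 ± 0.39 (SE) against thermoneutral housing (limma adjusted p 0.00101), -1.89 ± 0.39 against room temperature (limma adjusted p 0.000816) and -1.12 ± 0.42 against 2-day cold (limma adjusted p 0.0428). Of the 14 clusters, 8 (57.1%), 6 (42.9%) and 5 (35.7%) were called lower in these contrasts. The share called G1 was correspondingly 36.5% ± 5.62 (SD, n = 4) in thermoneutral housing and 65.8% ± 12.6 (SD, n = 4) in 7-day cold. The contrast with 2-day cold lost its call without 2-day cold replicate 3 or 4 or 7-day cold replicate 1 or 2, with limma adjusted p-values of 0.146, 0.211, 0.148 and 0.0557, and without 7-day cold replicate 1 its ratio was -0.73.

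**Figure D2:**
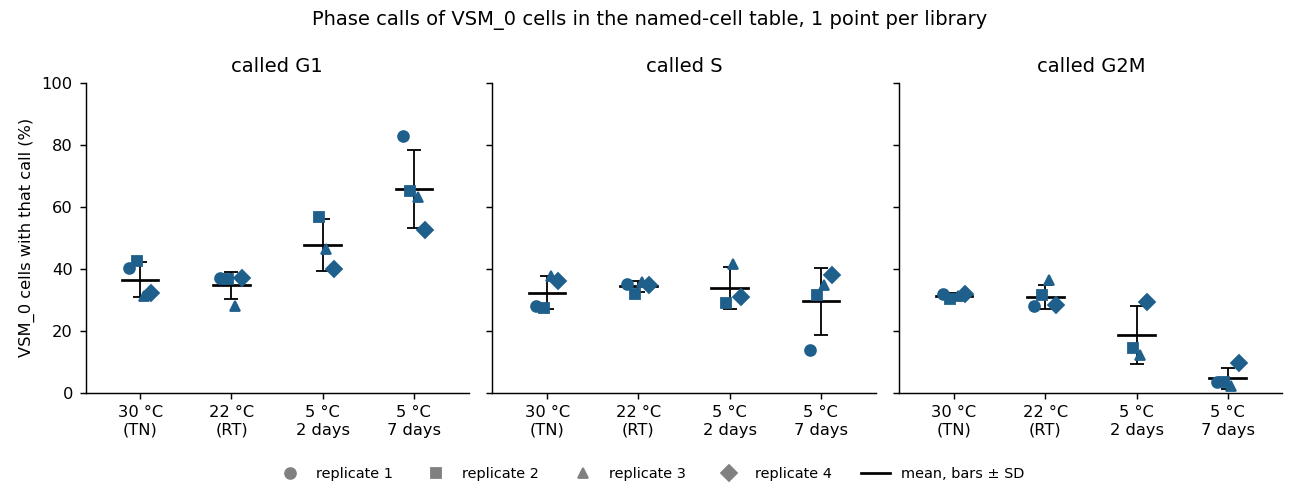
Percentage of the VSM_0 cells of each library called G1, S or G2M in the table of named cells, with 1 point per library, its shape giving the replicate number, and group means ± SD. The G2M share runs from 27.9% to 36.3% in the warm libraries and from 2.04% to 9.52% in 7-day cold, while the S shares of the groups overlap.

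The phase calls depended on the table they were read from. The authors' table of all cells carries its own scores and calls, and there 92.4% of the VSM_0 cells were called G1 and 43 were called G2M, against 627 in the table of named cells. The calls of the tables were equal for 46.6% of the cells. There, 0 of the 156 VSM_0 cells of 7-day cold were called G2M, which allows a share of up to 1.92%, and 1 was called S. S calls there took a mean of 0.510% of VSM_0 in 7-day cold, 3.28% in thermoneutral housing and 10.1% at room temperature. With those calls the log2 odds ratio of an S or G2M call in 7-day cold was -1.81 ± 0.60 against thermoneutral housing, which did not pass (limma adjusted p 0.0789), and -2.79 ± 0.60 against room temperature, which did (limma adjusted p 0.00114), as did 4 of the 14 clusters (28.6%). Against 2-day cold it was -1.53 ± 0.65 and did not pass (limma adjusted p 0.0902). For G2M calls alone no contrast of 7-day cold passed with those calls. The ratio was -1.07 ± 0.70 against thermoneutral housing (limma adjusted p 0.301) and -0.0995 ± 0.70 against room temperature (limma adjusted p 0.887). Against 2-day cold its sign turned, at 0.0675 ± 0.75 (limma adjusted p 0.929), although 7 of 445 cells of 2-day cold were called G2M there. With 0 such calls in 7-day cold, its odds were set by the part of a cell added before taking odds and by the library cell numbers. These G2M ratios therefore cannot decide whether G2M calls fell in 7-day cold.

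The G2M score itself, which does not turn on a threshold, was lower in 7-day cold in both tables. In the table of named cells the library medians of VSM_0 were -0.0109, -0.0141, -0.00525 and -0.00416 in thermoneutral housing and -0.00772, -0.00424, -0.00266 and -0.0131 at room temperature. In 2-day cold they were -0.0176, -0.0241 and -0.0164. In 7-day cold they were -0.0520, -0.0437, -0.0452 and -0.0385.

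In the table of named cells the 7-day cold libraries lay below all others, the 2-day cold libraries lay below all warm ones, and the warm groups overlapped. The means of the medians differed by -0.0362 between 7-day cold and thermoneutral housing (exact permutation p 0.0286, n = 4 and 4, the smallest this design allows). After adjustment over the 36 comparisons of 6 measures and 6 contrasts the exact permutation p was 0.229. It could not have passed with this number of libraries. With the scores of the all-cell table the difference was -0.0350, again without overlap, and in cells of 6000 to 15000 UMIs it was -0.0327, each with an exact permutation p of 0.0286. In 2-day cold against thermoneutral housing the difference was -0.0107 (exact permutation p 0.0571), which is as low as 3 against 4 libraries allow. With the scores of the all-cell table it was only -0.00272. There the 2-day cold medians, -0.0773 to -0.0690, lay within the thermoneutral range of -0.0775 to -0.0678 and overlapped the room temperature range.

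The mean of the median S scores of VSM_0 in 7-day cold minus that at room temperature was -0.0118, without overlap of the libraries (exact permutation p 0.0286, n = 4 and 4). Minus that in thermoneutral housing it was -0.00927, with overlap (exact permutation p 0.0571, n = 4 and 4). Neither could have passed after adjustment with this number of libraries (adjusted exact permutation p 0.229 each). These were scores of the table of named cells. With the scores of the all-cell table the differences were -0.0482 against room temperature and -0.0271 against thermoneutral housing. There the 7-day cold libraries overlapped neither group (exact permutation p 0.0286 each, n = 4 and 4).

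**Figure D3:**
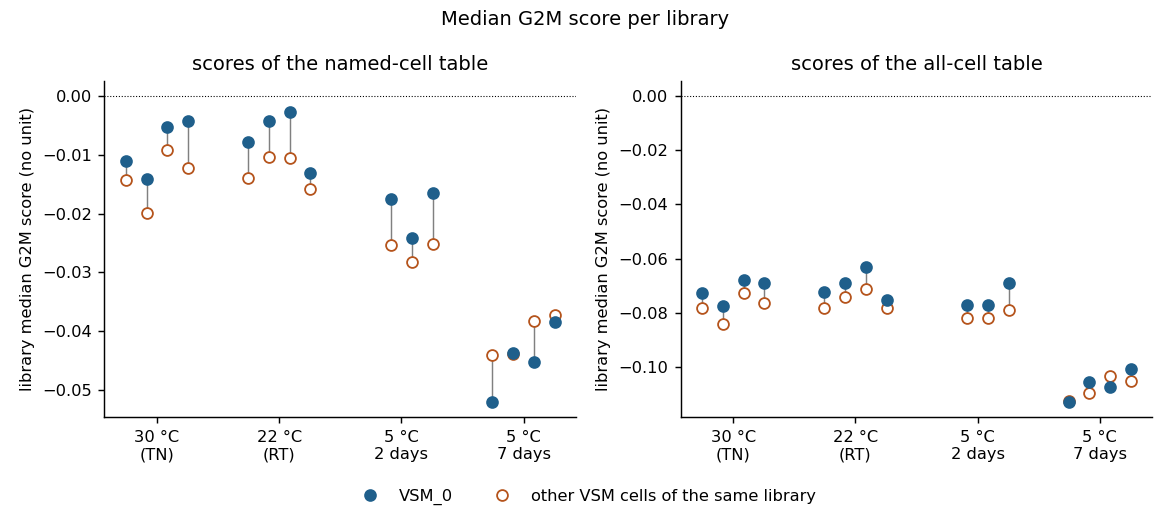
Library median G2M score of VSM_0 cells (filled) and of the other VSM cells of the same library (open), joined by a line, with the scores of the named-cell table on the left and of the all-cell table on the right. In both tables the 7-day cold libraries lie lowest for both kinds of cell, and in the named-cell table VSM_0 lies above the other VSM cells in each warm or 2-day cold library but not in 3 of the 4 libraries of 7-day cold.

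The fall in G2M calls was not limited to VSM_0. In 7-day cold against thermoneutral housing it was among 8 clusters called lower, and the median log2 odds ratio of the 14 was -1.09. Besides VSM_0 these were VSM_2 (-2.61 ± 0.59), VSM_3 (-2.34 ± 0.53), VSM_7 (-2.11 ± 0.61) and VSM_1 (-1.91 ± 0.58), the endothelial cluster EC_10, Schwann_14 and the cluster AP_8. VSM_0 had the most negative estimate of the 14 in this contrast, with error bars that overlap those of VSM_2. Against room temperature the estimate of VSM_2 was the lower, at -3.09 ± 0.64 beside -3.02 ± 0.45 in VSM_0.

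Set against the other VSM cells of the same libraries, the housing difference of VSM_0 was not shown to be its own. G2M calls took 18.6% to 29.3% of the other VSM cells in the thermoneutral libraries and 9.36% to 10.5% in 7-day cold. The log2 odds of an S or G2M call in VSM_0 minus that in the other VSM cells was 0.48 ± 0.12 (SD, n = 4) in thermoneutral housing and -0.17 ± 0.81 (SD, n = 4) in 7-day cold, a difference of -0.65 (exact permutation p 0.171). For G2M calls alone the values per library were 0.42, 0.95, 0.14 and 0.39 in thermoneutral housing and -1.01, -1.40, -1.80 and 0.16 in 7-day cold. Replicate 4 of 7-day cold, with 2 cells called G2M, lay inside the thermoneutral range, and the difference of the means was -1.49 (exact permutation p 0.0571, n = 4 and 4, and 0.171 adjusted over 6 contrasts). The room temperature libraries ran from 0.33 to 0.52, above all 4 libraries of 7-day cold. That difference was -1.42 (exact permutation p 0.0286, n = 4 and 4, the smallest this design allows, and 0.171 after the same adjustment). No contrast could have passed after adjustment with this number of libraries. With the all-cell table, the relative difference in S or G2M calls was -1.95 against thermoneutral housing and -2.23 against room temperature (exact permutation p 0.0286 each). There each 7-day cold library had 0 or 1 VSM_0 cells so called, so the part of a cell added weighs on these sizes.

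In the table of named cells, the median G2M score of VSM_0 exceeded that of the other VSM cells of its library by 0.00329 to 0.00810 in thermoneutral housing, and by -0.00790 to 0.000166 in 7-day cold. The groups did not overlap and the means differed by -0.00926 (exact permutation p 0.0286, n = 4 and 4, and 0.343 after adjustment, which this number of libraries could not pass). In cells of 6000 to 15000 UMIs this relative difference was -0.00204 (exact permutation p 0.6). With the scores of the all-cell table the excess of VSM_0 ran from -0.00392 to 0.00417 in 7-day cold, with a mean of 0.000921. It was 0.00500 to 0.00741 in thermoneutral housing, without overlap, and 0.00318 to 0.00825 at room temperature, with overlap. Over the 15 libraries, the G2M score of VSM_0 was higher than that of the other VSM cells in 12 and the S score in 14, which describes the cluster and carries no test, since the clusters were formed from the same cells.

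**Figure D4:**
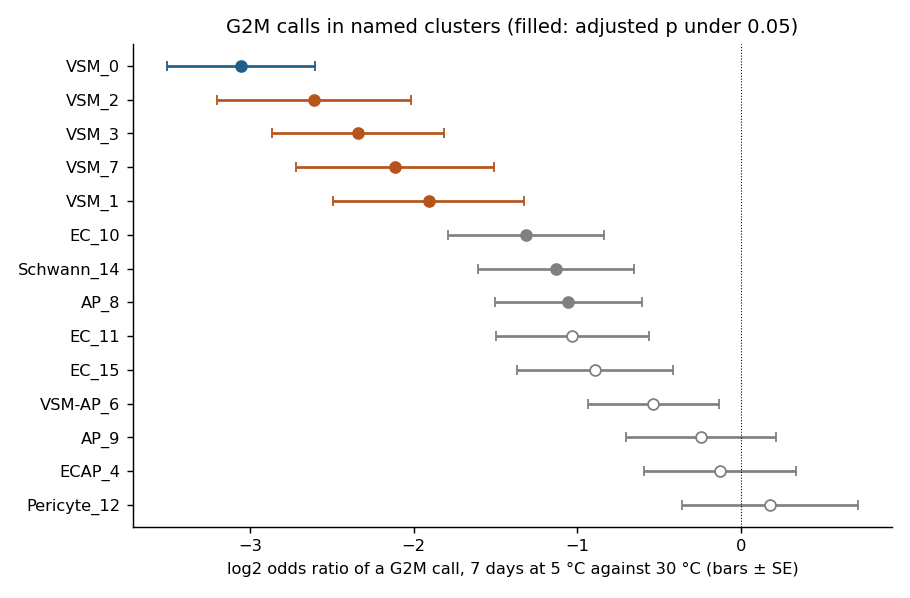
Log2 odds ratio of a G2M call, 7 days at 5 °C against 30 °C, with its standard error, in the 14 named clusters with enough cells; VSM_0 is blue, other VSM clusters are orange, other names grey, and filled points have a limma adjusted p under 0.05. VSM_0 stands lowest in this contrast at -3.05 and the next 4 are VSM clusters, from -2.61 to -1.91.

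For depth and mitochondrial content of VSM_0 the libraries were too few for any contrast of housing to pass after adjustment, and none did. The library median of UMIs per cell was 7316, 11370, 5263 and 6898.5 in thermoneutral housing and 12781, 9567, 5334 and 9273.5 at room temperature. In 2-day cold it was 10983, 10678.5 and 6663, and in 7-day cold 14739, 14875, 9005 and 8571. The groups overlapped, and the 7-day cold mean was higher than the thermoneutral mean by 4086 UMIs (exact permutation p 0.143, n = 4 and 4). Detected genes per cell followed, with a mean of the library medians of 3267 ± 678 (SD, n = 4) in 7-day cold and 2496.5 ± 447 (SD, n = 4) in thermoneutral housing.

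The log10 of the genes over the log10 of the UMIs, a measure of how many different genes a cell shows for its depth, was 0.865 ± 0.00664 (SD, n = 4) in 7-day cold and 0.877 ± 0.0103 (SD, n = 4) in thermoneutral housing, with overlap and an exact permutation p of 0.114.

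The median share of mitochondrial UMIs was 6.84%, 7.90%, 9.16% and 9.49% in the thermoneutral libraries and 9.99%, 11.6%, 9.90% and 11.1% in 7-day cold, and these groups did not overlap. The difference was 2.31 percentage points (exact permutation p 0.0286, n = 4 and 4, and 0.229 after adjustment). At room temperature the medians were 7.81%, 6.99%, 9.07% and 10.7%, and in 2-day cold 5.74%, 9.38% and 8.09%. The other VSM cells of the same libraries had group means of 8.11% ± 0.97 (SD, n = 4) in thermoneutral housing and 9.76% ± 0.57 (SD, n = 4) in 7-day cold. Set beside depth and mitochondrial share, the log2 odds ratio of a G2M call was -2.32 in cells of 6000 to 15000 UMIs, as above, and -3.01 ± 0.46 without cells of 20% or more mitochondrial UMIs, of which VSM_0 had 7. The part of free RNA in the phase calls was not tested.

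At finer clustering VSM_0 separated into a pair of clusters. At resolution 1.8 of the named-cell table, cluster 2 held 60.1% of its cells and cluster 10 held 36.8%, and both consisted mostly of VSM_0, at 88.6% and 91.5% of their cells. At the coarser resolution 0.8, 95.5% of VSM_0 lay in a single cluster, of which it made up 64.7%.

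The share of VSM_0 in fine cluster 2 was 81.4%, 69.7%, 44.3% and 37.4% in thermoneutral housing, and 71.5%, 80.8%, 30.5% and 17.4% at room temperature. In 2-day cold it was 93.5%, 56.1% and 67.1%, and in 7-day cold 79.3%, 64.9%, 81.6% and 61.9%. In the warm groups replicates 1 and 2 were all above replicates 3 and 4, and over all libraries the mean was 77.3% ± 9.49 (SD, n = 7) for replicates 1 and 2 and 49.5% ± 21.1 (SD, n = 8) for replicates 3 and 4. The mean in 7-day cold exceeded that in thermoneutral housing by 13.7 percentage points, which did not pass (exact permutation p 0.314, n = 4 and 4).

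Cells of fine cluster 2 had more UMIs than those of fine cluster 10 in all 9 libraries with enough cells of both, by a median of 1090 UMIs. They had the lower S score in 7 of the 9 and the higher G2M share in 5 of the 9. The pair thus differed by depth within a library and, in the warm groups, by replicate number between libraries. In 7-day cold the replicate groups overlapped. The part of depth in the split was not tested.

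**Figure D5:**
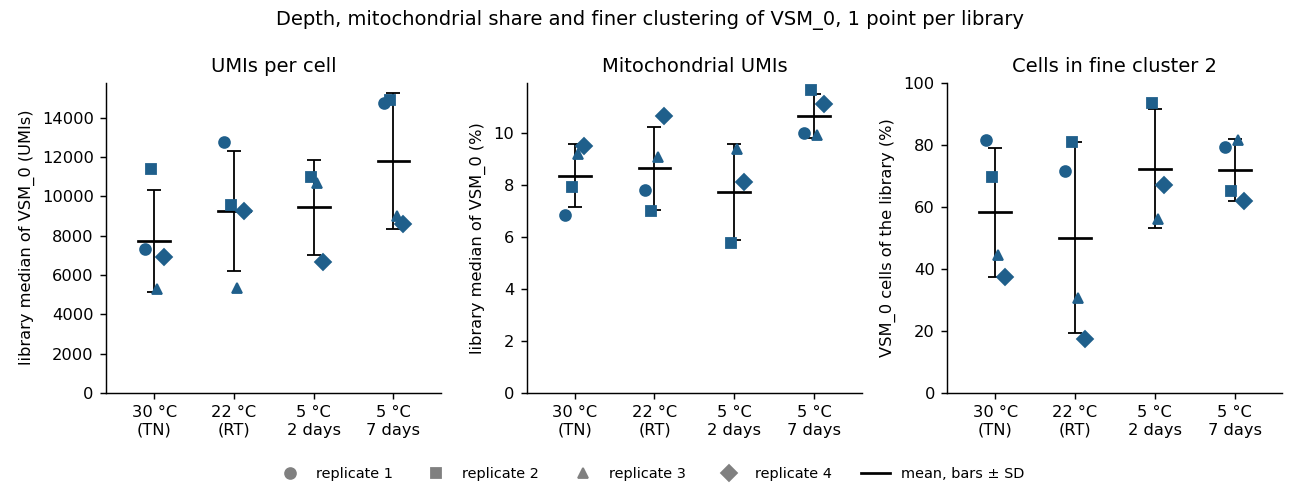
Library median UMIs per VSM_0 cell, library median mitochondrial share of VSM_0 cells, and the percentage of VSM_0 cells in fine cluster 2, with 1 point per library, its shape giving the replicate number, and group means ± SD. Mitochondrial medians are 9.90% to 11.6% in 7-day cold and 6.84% to 9.49% in thermoneutral housing; in both warm groups replicates 3 and 4 have the lower share in fine cluster 2.

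Beside the next largest VSM clusters of the same libraries, VSM_0 was intermediate in depth. Its median UMIs per cell were higher than those of VSM_1 in 12 of 15 libraries, by a median of 493, and lower than those of VSM_2 in 13 of 14, by a median difference of -1245. Its G2M score was higher than that of VSM_1 in 12 of 15 libraries and than that of VSM_2 in 13 of 14, and its S score was higher in 11 of 15 and 14 of 14. Over all its cells VSM_0 had a median of 7979 UMIs, 2562 genes and 8.31% mitochondrial UMIs. These differences describe clusters formed from the same cells and carry no test.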

How the data were processed

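Chromium 3′ v3 single-cell libraries of 16 samples were used as per-cell annotations. STAR and Cell Ranger 3.0.1, with mm10, are named for read processing per the submitters' processing notes. For cell filters, integration and clustering, the settings were not given in the sources used here. For each cell, the authors gave raw whole-number counts of UMIs and of detected genes. They also deposited the mitochondrial fraction (0 to 1), shown here in percent. The ratio between log10 genes and log10 UMIs, and the S and G2M scores with the phase call, were deposited by the authors, the scores separately in each table. Cluster numbers and names are the authors' own, per the file headers.

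The library was the unit. Shares were computed with 0.5 added to both the cell number of the cluster and that of all other cells, and were fitted on the log2 odds scale with limma 3.58.1 (R 4.3.3), 4 groups in one fit, 6 contrasts, Benjamini-Hochberg adjustment over clusters within a contrast, threshold 0.05, two-sided. Clusters needed a mean of 10 cells per library for shares of named cells, with no minimum for shares of VSM cells. For phase calls they needed at least 10 cells in a library and 3 such libraries in each group. Library medians were compared by two-sided exact permutation tests (scipy 1.17.1), with 70 assignments for 4 against 4 libraries and 35 for 3 against 4, adjusted over contrasts and measures. edgeR 4.0.16 on cell numbers was an alternative. The limma step was tested on simulated cell numbers. Members, clusters and comparisons were chosen with earlier results of these data known; G2M calls alone as a result of their own, the fine-cluster share, the depth range of 6000 to 15000 UMIs and the scores of the all-cell table were added after seeing the data. VSM_1 and VSM_2 are named as the largest other VSM clusters, another only where it passed in the contrast given, and clusters of other resolutions only where they held at least 5% of VSM_0.

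Cells could not be thinned to a fixed number of UMIs without gene values, so ranges of depth were used, and doublets were not called. Single-library shares have 95% Wilson intervals, and a count of 0 a limit of 3 cells; both cover counting error only. Every pair of libraries of a group differed beyond sampling noise over the named clusters (lowest chi-square per degree of freedom 3.84). Other alternatives were the arcsine scale, centred log ratios, TMM scaling, 1 cell added, other minimums, fits of 2 groups, replicate number or replicate group as a covariate, cells under 20% mitochondrial UMIs, other denominators, means for medians, and leaving out each library.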

Additional observations from a re-analysis of the deposited data

Results flagged for a closer look

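In room temperature replicate 3, 71.9% of the VSM_0 cells were called S or G2M, while the other 3 libraries of that condition lay between 63.0% and 63.2%. The gap to the nearest library was 0.979 of the range of the group, above Dixon's 95% limit for 4 samples. It is the only one of 39 groups of values tested that stood out in this way, where chance alone marks about 1 group in 20. The library has the lowest median depth of VSM_0 at room temperature, at 5334 UMIs; the part of depth in this value was not tested.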

How the results depend on the processing

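Values are log2 odds ratios unless said otherwise. The share of VSM cells passed under no setting, and its sign was not fixed. In 2-day cold against thermoneutral housing it was -0.21 on centred log ratios, -0.0284 by edgeR with TMM scaling and -0.64 in cells of 2000 to 6000 UMIs. In cells of 6000 to 15000 UMIs it was 0.50 for 7-day cold against thermoneutral housing, 0.13 against room temperature and 0.21 against 2-day cold. Leaving out 1 library gave -0.154 to 0.0426 for 7-day cold against thermoneutral housing, -0.0845 to 0.340 for 2-day cold against thermoneutral housing, -0.504 to 0.0669 for 2-day cold against room temperature, and -0.394 to 0.0298 for 7-day against 2-day cold.

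The share of named cells in 7-day cold against thermoneutral housing passed on the arcsine scale (difference -0.0988 on that scale), on centred log ratios (-1.71) and by edgeR with TMM scaling (-1.34). Against room temperature it passed in cells under 20% mitochondrial UMIs (-1.30). With the replicate groups 1 and 2 against 3 and 4 as a covariate both passed, at -1.06 and -1.22. Room temperature against thermoneutral housing was -0.22 on centred log ratios, -0.30 with TMM scaling and -0.62 in cells of 2000 to 6000 UMIs, and 2-day cold against thermoneutral housing 0.14 in cells of 6000 to 15000 UMIs. Without 1 library the range was -1.32 to -0.89 for 7-day cold against thermoneutral housing and -0.10 to 0.33 for room temperature against thermoneutral housing.

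In 7-day cold, S or G2M calls lost their call with S alone (-0.22 against thermoneutral housing, -0.36 against room temperature, -0.31 against 2-day cold). For 2-day cold against thermoneutral housing, which had not passed, S alone turned the sign, to 0.0912. With the calls of the all-cell table they lost it against thermoneutral housing (-1.81) and 2-day cold (-1.53). In that table no VSM_0 cell of 7-day cold was called G2M, so its odds rested on the part of a cell added. There, G2M calls alone gave -1.07, -0.0995 and 0.0675 for 7-day cold against thermoneutral housing, room temperature and 2-day cold. In cells of 6000 to 15000 UMIs they gave -1.31 against 2-day cold, past no threshold, and with 20 cells per library -1.08 for 2-day cold against thermoneutral housing, which passed. Room temperature against thermoneutral housing was -0.0304 with G2M alone and 0.0147 for G2M calls in cells of 6000 to 15000 UMIs. Without 1 library the range for S or G2M calls was -1.41 to -0.73 for 7-day against 2-day cold and -0.0372 to 0.219 for room temperature against thermoneutral housing, and for G2M calls -2.38 to -1.50 and -0.145 to 0.0399. The falls in G2M calls against thermoneutral housing (-3.46 to -2.77) and room temperature (-3.43 to -2.74) passed without any 1 library.

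Relative to other VSM cells, S calls alone gave 0.0665 and 0.101 for 7-day cold against thermoneutral housing and room temperature, and the relative G2M score against room temperature was 0.000468 in cells of 6000 to 15000 UMIs. The G2M score of room temperature against thermoneutral housing ranged from -0.000128 to 0.00376 without 1 library. The causes of these changes were not tested.

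The labels number the replicates 1 to 4 in each group. Of 21 pairs of libraries with the same number 12 had deviations correlated over 0.1. Among 21 pairs with the other number of the same replicate group (1 and 2, or 3 and 4) 13 had. Across these groups 6 of 42 pairs had. The correlations thus went with the replicate group and not clearly with the number, and 7 of 15 libraries correlated best with their own number. The main fits held neither as a term. With the replicate number as a block, the share of named cells passed in 7-day cold against thermoneutral housing (-1.06, limma adjusted p 0.0276, with 15 of 27 clusters called in place of 10) and against room temperature (-1.22, limma adjusted p 0.0252, 8 in place of 2), and no other call of VSM_0 changed. The phase fit in cells of 2000 to 6000 UMIs gave no value, since too few libraries had enough such cells. With 156 cells in 7-day cold, small changes of VSM_0 were not detectable, and the design allows no exact p under 0.0286.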

Other observations

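Replicate 1 of 2-day cold has no named cells, but its cells are in the table of all cells. There, cluster 10 at resolution 1.8 held 69.9% of VSM_0. Of the named cells in that cluster 53.5% were VSM_0 and 22.2% were VSM_7, so it is a wider group than VSM_0. Replicate 1 of 2-day cold had 144 cells in it, 1.44% of its 10001 cells (95% Wilson interval 1.22% to 1.69%). The other 2-day cold libraries had 2.80%, 1.55% and 1.97% in the order of replicates 2 to 4. Thermoneutral libraries had 6.74%, 2.92%, 2.29% and 5.73%, room temperature libraries 7.81%, 7.62%, 2.86% and 0.797%, and 7-day cold libraries 0.557%, 2.24%, 0.747% and 1.83%. The unnamed library was thus just below the other 2-day cold libraries and within the range of 7-day cold. Its cells in the cluster had a median of 6348 UMIs and 6.96% mitochondrial UMIs, and 95.8% of them were called G1 in that table.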
